A study of Homo sapiens with 24 samples.

Results

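The glycolytic set comprised 35 genes that carry glucose into the cell, convert it to pyruvate and lactate, export the lactate or set the balance between lactate and mitochondrial oxidation. They were chosen by name, with earlier results of these data known. They were glucose transporters, enzymes of each glycolytic step, kinases and subunits of pyruvate dehydrogenase, and lactate transporters with their chaperone, and not every gene of each step. All 35 were found among the 23106 gene symbols counted, 34 under their current symbol and TIGAR under its older symbol C12orf5. Of the 35, 32 passed the filter on low counts and were tested, whereas SLC2A3, PDK3 and PDK4 did not.

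PolyA RNA was sequenced from RCC4+VHL cells, a single transfected renal carcinoma line in which stable expression of VHL restores the oxygen-dependent destruction of HIF-α. There were 4 groups of 6 libraries. The normoxia groups were kept in ambient oxygen (21%) and the hypoxia groups in 0.5% oxygen for 6 h. Over the same 6 h each group received either 0.1% DMSO, the vehicle, or 100 nM ITE, an indole-type ligand that activates the aryl hydrocarbon receptor (AHR). All groups had been grown for about 48 h in medium without phenol red and with charcoal-stripped serum, so that other AHR and hormone ligands were reduced in the controls also.

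Glycolysis splits glucose into pyruvate and yields ATP without oxygen. When pyruvate is reduced to lactate, NAD+ is regenerated and lactate leaves the cell with a proton. Many glycolytic enzymes are encoded by several genes, and HIF-1 is a known activator of many of them, binding DNA at a core of ACGTG or GCGTG. AHR binds GCGTG together with the same partner, HIF-1β (ARNT).

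The authors deposited raw counts per gene. Libraries held between 770094 and 93851342 counts (median 7981992), and 2 of them fewer than 2000000. In the shallowest, hypoxia + DMSO replicate 2, a count of 3 corresponded to 3.90 CPM, a floor that covers counting error only. Counts were scaled to CPM (read counts normalised by the TMM method to the library size), which compares libraries for 1 gene. Levels of different genes were compared only per kilobase of exon. The renal marker PAX8 was between 191 and 476 CPM in all 24 libraries, and the epithelial keratins KRT8 and KRT18 were at least 498 and 389 CPM. Of the immune markers, PTPRC and CD3E were at 0 counts in 23 of 24 libraries and CD68 lay between 5.50 and 31.4 CPM. Of the endothelial markers, PECAM1, CDH5 and VWF were at 0 in 23, 18 and 9 libraries and never above 1.84 CPM. Of the fibroblast markers, DCN was at 0 in 23 libraries, COL1A1 reached 27.1 CPM and PDGFRB lay between 17.8 and 48.6 CPM. The hypoxia marker gene NDRG1 rose by 3.25 on the log2 scale with DMSO, and the AHR target CYP1B1 rose by 2.51 with ITE in normoxia.

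Hypoxia + ITE replicate 6 stood apart from the rest of its group across the glycolytic set. It was above all 5 other hypoxia + ITE libraries for 19 of the 32 tested genes, below all 5 for 10 and within their range for 3. GAPDH was 15339 CPM in replicate 6 and between 4126 and 5320 CPM in the others. BSG was 1875 CPM against 422 to 581 CPM. In the other direction, PFKM was 35.5 CPM against 56.5 to 64.8 CPM and PDK1 was 43.2 CPM against 60.9 to 84.7 CPM. The set took 3.54% of all counts in replicate 6 and 2.40 ± 0.0549% (SD, n = 5) in the others. KRT8 (1985 CPM, at most 926 elsewhere), KRT18 (1568 CPM, at most 763 elsewhere) and PAX8 (476 CPM, at most 288 elsewhere) were also higher in this library than in any of the other 23. The macrophage marker CD68 was 31.4 CPM (at most 17.8 elsewhere), with PTPRC and CD3E at 0. What sets this library apart was not tested, and the values that moved most with it are given with and without it.

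Hypoxia raised 13 of the 32 tested genes in the presence of DMSO and lowered 0. The 13 were the transporter gene SLC2A1, the hexokinases HK1 and HK2, PFKFB3, PFKFB4, ALDOA, ALDOC, PGK1, PGAM1, ENO2, LDHA, PDK1 and the lactate exporter SLC16A3. Their log2 fold changes ran from 0.56 for PGAM1 to 3.41 for PFKFB4. Over all 11735 genes tested, 1.16% rose and 0.136% fell in this comparison (edgeR quasi-likelihood test, Benjamini-Hochberg adjusted p under 0.05). The median log2 fold change was 0.45 over the 32 genes and -0.00 over all genes. In bulk RNA, a change in each cell cannot be told apart from a change in the share of cells that express a gene.

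With ITE present throughout, hypoxia raised 17 of the 32 genes and lowered 0, against 1.89% of all genes raised and 0.46% lowered. The 17 were the same 13 and GPI, TPI1, GAPDH and ENO1. The median was 0.80 over the 32 genes and 0.02 over all. The 4 added genes were among those in which replicate 6 was most extreme, and none of the 4 had a detectable difference between the responses (unadjusted interaction p from 0.0842 for GPI to 0.485 for TPI1).

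When replicate 6 of hypoxia + ITE was left out of the fit, 18 genes passed with DMSO, against 2.02% of all genes. With ITE 17 passed, against 1.63% of all genes. These 17 were all among the 18, and the additional gene was PKM. GPI, TPI1, GAPDH and ENO1 thus passed in both comparisons once that library was absent, with log2 fold changes of 0.42, 0.68, 0.48 and 0.48 with DMSO and 0.51, 0.54, 0.43 and 0.39 with ITE.

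In 16 of the 32 genes every hypoxia + DMSO library was above every normoxia + DMSO library, whereas 1.8% of all genes separated in that way. With ITE the number was 18, against 1.21% of all genes. No member had its hypoxia libraries all below its normoxia libraries in either comparison. Within hypoxia + DMSO, replicate 1 was the lowest library for 16 of the 32 genes and the highest for 6. The share of all counts that fell on the 35 genes was 1.72 ± 0.111% (SD, n = 6) in normoxia + DMSO and 1.74 ± 0.0466% in normoxia + ITE. It was 2.47 ± 0.128% in hypoxia + DMSO and 2.59 ± 0.470% in hypoxia + ITE.

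**Figure D1:**
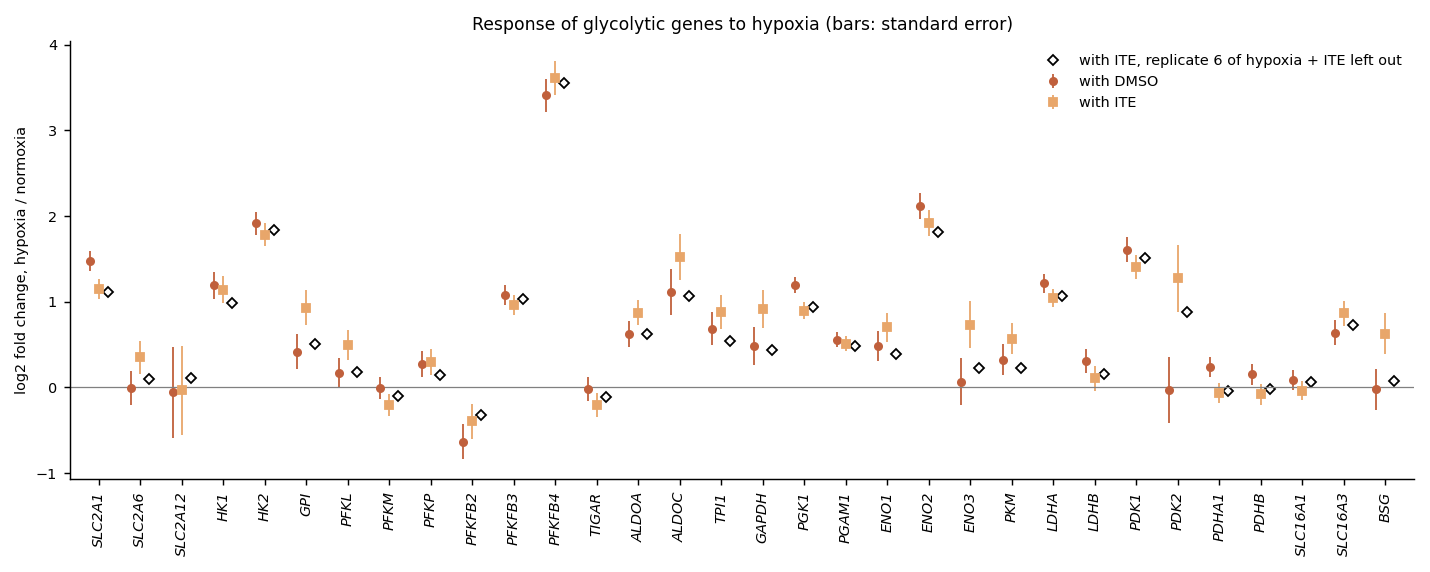
Log2 fold change of hypoxia against normoxia for the 32 tested genes, ordered by pathway step, with DMSO (circles) and with ITE (squares), with standard errors, and with ITE after replicate 6 of hypoxia + ITE was left out (diamonds). PFKFB4, ENO2, HK2, PDK1 and SLC2A1 are the highest with DMSO, and the diamonds of GPI, GAPDH, TPI1 and ENO1 lie below their squares.

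Glucose entry was represented by 4 facilitative transporters. SLC2A1 (GLUT1, the widespread basal transporter, GRCh37 chromosome 1 from 43391024 to 43424564) ranged from 116 to 165 CPM (median 146) in normoxia + DMSO and from 306 to 473 CPM (median 400) in hypoxia + DMSO. With ITE the libraries lay between 154 and 196 CPM (median 183) in normoxia and between 304 and 455 CPM (median 417) in hypoxia. The oxygen groups did not overlap with either treatment. SLC2A1 rose 2.78-fold with DMSO (log2 fold change 1.47, standard error [SE] 0.12, adjusted p = 6.25e-10) and 2.22-fold with ITE (1.15, adjusted p = 1.04e-07).

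SLC2A6 (GLUT6, a transporter found largely on internal membranes) did not follow it. Its values ranged from 31.0 to 50.6 CPM (median 37.8) in normoxia + DMSO and from 30.2 to 49.5 CPM (median 38.0) in hypoxia + DMSO, so the groups overlapped almost completely. The log2 fold change was -0.01 (SE 0.19) with DMSO and 0.35 with ITE, or 0.10 without replicate 6. SLC2A12 (GLUT12), at up to 3.23 CPM, had a log2 fold change of -0.06 with an SE of 0.53, and its exons overlap those of TBPL1 on the opposite strand by 2852 bases. SLC2A3 (GLUT3, the high-affinity neuronal transporter) had a count in 7 of 24 libraries and never more than 7 counts. Its sequence is nearly that of SLC2A14, and reads that mapped to both were removed by the authors.

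Hexokinase phosphorylates glucose and so traps it in the cell. HK1, the ubiquitous isoform, ranged from 50.9 to 69.3 CPM (median 60.7) in normoxia + DMSO and from 79.1 to 177 CPM (median 139) in hypoxia + DMSO. HK2, the isoform typical of muscle and of many tumours, ranged from 29.3 to 40.6 CPM (median 35.4) and from 96.2 to 169 CPM (median 134). For both genes the oxygen groups were separate. HK1 rose 2.29-fold (log2 fold change 1.19, SE 0.16, adjusted p = 1.21e-05) and HK2 rose 3.78-fold (1.92, SE 0.14, adjusted p = 5.61e-11). With ITE the log2 fold changes were 1.14 and 1.78.

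GPI, which isomerises glucose 6-phosphate to fructose 6-phosphate, ranged from 203 to 261 CPM (median 256) in normoxia + DMSO and from 274 to 386 CPM (median 329) in hypoxia + DMSO. These groups did not overlap, although the log2 fold change of 0.42 (SE 0.20, adjusted p = 0.519) did not pass. Without hypoxia + ITE replicate 6, at 1022 CPM, it passed with the same size (adjusted p = 0.00301). With ITE, GPI rose by 0.93 on the log2 scale in the fit to all libraries and by 0.51 without that library.

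Phosphofructokinase-1 commits the sugar to glycolysis. None of its 3 subunit genes passed the threshold. PFKP (platelet type), the highest of them per kilobase, had a log2 fold change of 0.27 (SE 0.15, adjusted p = 0.596) with DMSO. PFKL (liver type) gave 0.17 and PFKM (muscle type) gave -0.01. With ITE the values were 0.30, 0.50 and -0.20, and without replicate 6 they were 0.14, 0.18 and -0.10.

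**Figure D2:**
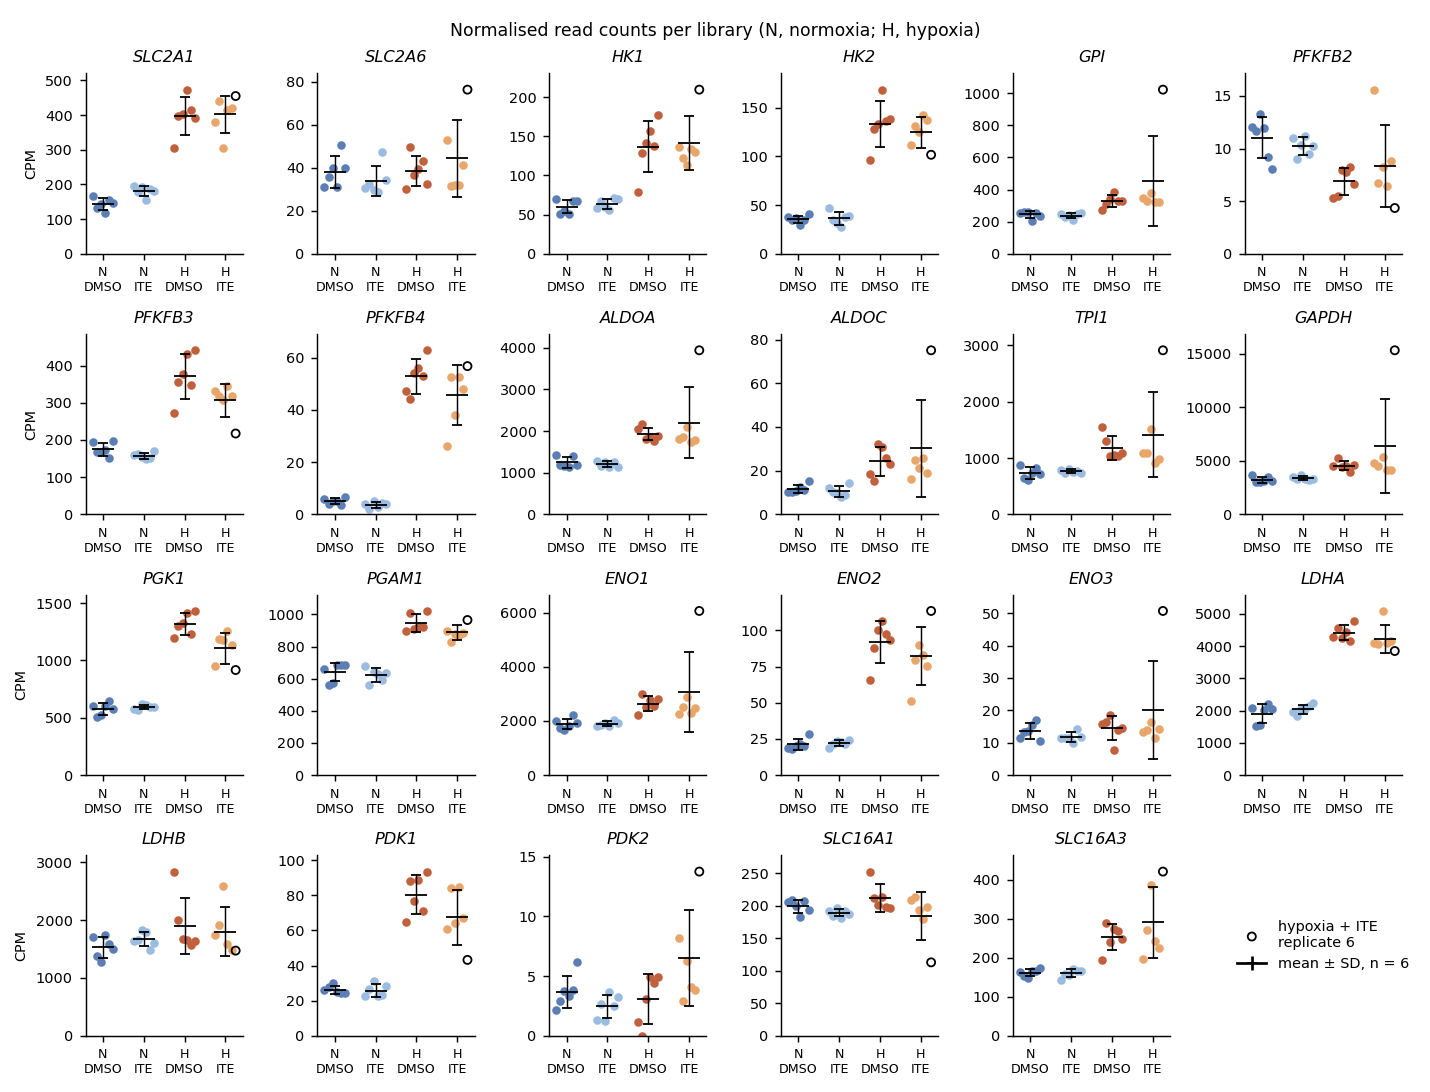
CPM in each library for the 23 genes described in full, with 6 libraries per group (points), the mean and SD (bars), and hypoxia + ITE replicate 6 as an open circle. SLC2A1, HK2, PFKFB3, PFKFB4, PGK1, ENO2, LDHA and PDK1 separate by oxygen with both treatments, and replicate 6 sets the mean of hypoxia + ITE for GPI, GAPDH, TPI1, ENO1 and ALDOC.

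The bifunctional PFKFB enzymes make and degrade fructose 2,6-bisphosphate, the strongest activator of phosphofructokinase-1. Their genes included the gene of the set that changed most. PFKFB4 ranged from 3.54 to 6.56 CPM (median 5.17) in normoxia + DMSO and from 44 to 62.8 CPM (median 53.5) in hypoxia + DMSO. With ITE its range was 1.91 to 4.96 CPM (median 4.04) in normoxia and 26.0 to 56.7 CPM (median 50.2) in hypoxia. The lowest hypoxia library was above the highest normoxia library by a wide margin in both pairs of groups. PFKFB4 rose 10.6-fold with DMSO (log2 fold change 3.41, SE 0.19, adjusted p = 4.29e-13) and 12.2-fold with ITE (3.61, adjusted p = 3.3e-13). The normoxia means were 5.05 CPM with DMSO and 3.67 CPM with ITE. Within hypoxia, ITE against DMSO gave -0.20 (edgeR adjusted p = 0.705), or -0.26 without hypoxia + ITE replicate 6, and did not pass. By RT-qPCR in these cells, the authors report that ITE modestly lowered PFKFB4 in hypoxia.

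PFKFB3, whose enzyme has the highest kinase activity of the family, ranged from 153 to 198 CPM (median 170) in normoxia + DMSO and from 273 to 441 CPM (median 366) in hypoxia + DMSO. It rose 2.11-fold (log2 fold change 1.08, SE 0.12, adjusted p = 3.29e-07) without overlap, and 1.94-fold with ITE. PFKFB2, the cardiac isoform, lay between 8.04 and 13.2 CPM (median 11.8) in normoxia + DMSO and between 5.33 and 8.21 CPM (median 7.21) in hypoxia + DMSO, with a small overlap. Its log2 fold change was -0.63 (SE 0.20, adjusted p = 0.171), the lowest of the 32 genes, and -0.40 with ITE. TIGAR, which lowers fructose 2,6-bisphosphate, had a log2 fold change of -0.02 with DMSO and -0.20 with ITE.

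The promoter window of PFKFB4 is shown because the gene changed most. It is the 250 bases before the RefSeq start on GRCh38.p14 (chr3:48556804-48557053, minus strand, written 5′ to 3′). Capitals would mark the HIF-type core ACGTG on either strand, and this window holds none.
PFKFB4: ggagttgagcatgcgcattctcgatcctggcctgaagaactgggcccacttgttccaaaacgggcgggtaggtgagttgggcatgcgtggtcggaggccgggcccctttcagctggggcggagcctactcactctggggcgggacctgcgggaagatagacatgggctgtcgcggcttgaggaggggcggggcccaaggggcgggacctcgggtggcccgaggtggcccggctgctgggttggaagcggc
It holds GCGTG once. PFKFB2 is not in the promoter table.

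Aldolase splits fructose 1,6-bisphosphate into trioses. ALDOA, the muscle and general isoform, ranged from 1144 to 1429 CPM (median 1178) in normoxia + DMSO and from 1770 to 2159 CPM (median 1878) in hypoxia + DMSO. It rose 1.54-fold (log2 fold change 0.62, SE 0.15, adjusted p = 0.0268) without overlap. The call was lost when the shallow hypoxia + DMSO replicate 2 was left out (0.59, adjusted p = 0.0724). ALDOC, the brain isoform, ranged from 10.2 to 15.2 CPM (median 10.9) and from 15.1 to 32.3 CPM (median 24.4), a just overlapping pair, and rose 2.16-fold (1.11, SE 0.27, adjusted p = 0.027). In hypoxia + ITE replicate 6 ALDOC was 75.1 CPM, and the next highest library held 25.7 CPM, and its log2 fold change with ITE was 1.52 with that library and 1.06 without it.

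TPI1 interconverts the trioses. It ranged from 615 to 878 CPM (median 722) in normoxia + DMSO and from 1032 to 1558 CPM (median 1074) in hypoxia + DMSO, without overlap. The log2 fold change of 0.69 (SE 0.20) had an adjusted p of 0.0997, or 0.000213 without hypoxia + ITE replicate 6. TPI1 rose by 0.88 with ITE, or by 0.54 without that library. GAPDH, which oxidises glyceraldehyde 3-phosphate and is often used as a reference gene, ranged from 3012 to 3719 CPM (median 3127) and from 3936 to 5226 CPM (median 4534), again without overlap. Its log2 fold change of 0.48 (SE 0.22) had an adjusted p of 0.471, or 0.000327 without that library. With ITE, GAPDH rose by 0.91 on the log2 scale in the fit to all libraries and by 0.43 without replicate 6.

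PGK1, which makes the first ATP of the pathway, ranged from 507 to 643 CPM (median 587) in normoxia + DMSO and from 1198 to 1431 CPM (median 1314) in hypoxia + DMSO. With ITE the ranges were 565 to 621 CPM (median 593) and 916 to 1254 CPM (median 1158). Neither pair of groups overlapped. PGK1 rose 2.29-fold with DMSO (log2 fold change 1.20, SE 0.10, adjusted p = 1e-09) and 1.86-fold with ITE (0.90, adjusted p = 3.07e-07). PGAM1, the phosphoglycerate mutase, ranged from 563 to 686 CPM (median 673) and from 896 to 1022 CPM (median 922) with DMSO, and rose 1.47-fold (0.56, SE 0.09, adjusted p = 0.000149).

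Enolase makes phosphoenolpyruvate. ENO1, the general isoform, ranged from 1671 to 2205 CPM (median 1871) in normoxia + DMSO and from 2212 to 3014 CPM (median 2647) in hypoxia + DMSO. These ranges only just separated, and the log2 fold change of 0.48 (SE 0.17) had an adjusted p of 0.264, or 0.000701 without hypoxia + ITE replicate 6. ENO1 rose by 0.70 with ITE, or by 0.39 without that library. ENO2, the isoform typical of neurons, ranged from 18 to 28.5 CPM (median 20.3) and from 65.7 to 107 CPM (median 95.5). ENO2 rose 4.35-fold (2.12, SE 0.15, adjusted p = 6.61e-11) and, with ITE, 3.77-fold. ENO3, the muscle isoform, ranged from 10.5 to 17.1 CPM (median 13.5) and from 7.61 to 18.4 CPM (median 15.1), and its log2 fold change was 0.07 (SE 0.27).

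The windows of ENO2 and ENO3 are shown as the enolase genes with the largest and the smallest change (GRCh38.p14, plus strand, chr12:6914330-6914579 and chr17:4950302-4950551, the more upstream of the starts listed for ENO3). Capitals mark ACGTG on either strand.
ENO2: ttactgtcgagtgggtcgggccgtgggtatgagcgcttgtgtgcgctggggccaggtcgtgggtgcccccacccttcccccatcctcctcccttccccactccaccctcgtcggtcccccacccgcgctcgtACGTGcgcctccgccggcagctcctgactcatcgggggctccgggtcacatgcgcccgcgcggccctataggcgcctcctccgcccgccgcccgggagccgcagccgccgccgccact
ENO3: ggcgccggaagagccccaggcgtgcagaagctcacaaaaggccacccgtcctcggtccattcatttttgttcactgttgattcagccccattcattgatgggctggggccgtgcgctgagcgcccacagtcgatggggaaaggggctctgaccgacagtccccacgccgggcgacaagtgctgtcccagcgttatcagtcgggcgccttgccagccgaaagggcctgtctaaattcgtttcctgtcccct
ENO2 has 1 match and ENO3 has none, while GCGTG is absent from the ENO2 window and occurs 2 times in that of ENO3.

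PKM, the pyruvate kinase gene, had a log2 fold change of 0.33 (SE 0.18, adjusted p = 0.596) with DMSO and 0.57 with ITE. Without hypoxia + ITE replicate 6, at 6594 CPM, these were 0.32 (adjusted p = 0.0434) and 0.23 (adjusted p = 0.258), and the difference between them did not pass (interaction -0.09, unadjusted p = 0.467). Gene counts do not separate its PKM1 and PKM2 splice forms.

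Lactate dehydrogenase interconverts pyruvate and lactate, and its A and B subunits favour opposite directions. LDHA ranged from 1508 to 2208 CPM (median 2031) in normoxia + DMSO and from 4149 to 4781 CPM (median 4352) in hypoxia + DMSO. With ITE it ranged from 1826 to 2246 CPM (median 2046) and from 3845 to 5087 CPM (median 4099). The lowest hypoxia library was well above the highest normoxia library with each treatment. LDHA rose 2.32-fold (log2 fold change 1.21, SE 0.11, adjusted p = 4.93e-09) with DMSO and 2.07-fold (1.05, adjusted p = 1.04e-07) with ITE. LDHB ranged from 1282 to 1738 CPM (median 1542) and from 1569 to 2837 CPM (median 1667) with DMSO, with overlap, and its log2 fold change was 0.31 (SE 0.14, adjusted p = 0.499).

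LDHA is shown because its upstream start has the most ACGTG matches of any window of the set, and LDHB because it is the other subunit (GRCh38.p14, chr11:18394313-18394562, plus strand, and chr12:21657843-21658092, minus strand). Capitals mark the matches, which overlap where the letters read CACGTG, since both strands then match.
LDHA: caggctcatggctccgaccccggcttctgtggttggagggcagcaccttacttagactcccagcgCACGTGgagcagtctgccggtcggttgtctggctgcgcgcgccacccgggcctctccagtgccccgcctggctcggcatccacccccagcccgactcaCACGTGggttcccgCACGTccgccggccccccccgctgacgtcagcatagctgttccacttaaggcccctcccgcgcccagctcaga
LDHB: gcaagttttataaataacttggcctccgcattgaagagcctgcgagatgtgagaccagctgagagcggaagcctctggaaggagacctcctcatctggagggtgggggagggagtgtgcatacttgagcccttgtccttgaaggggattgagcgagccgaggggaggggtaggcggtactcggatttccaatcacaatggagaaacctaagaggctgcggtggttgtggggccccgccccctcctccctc
The LDHA window has 5 matches and the LDHB window none, and GCGTG is in neither.

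Pyruvate dehydrogenase kinases switch off the entry of pyruvate into the mitochondrial oxidation pathway. PDK1 ranged from 24.5 to 29.9 CPM (median 25.4) in normoxia + DMSO and from 65.1 to 93.6 CPM (median 82.4) in hypoxia + DMSO. It rose 3.05-fold (log2 fold change 1.61, SE 0.14, adjusted p = 5.06e-09) without overlap, and 2.65-fold with ITE. PDK2 was low, between 2.16 and 6.14 CPM (median 3.54) in normoxia + DMSO and between 0 and 4.95 CPM (median 3.76) in hypoxia + DMSO, where the 0 is the shallow replicate 2. Its log2 fold change of -0.03 (SE 0.39) with DMSO and 1.27 (adjusted p = 0.0778) with ITE did not pass. In hypoxia + ITE replicate 6 it was 13.8 CPM, against 2.93 to 8.17 CPM in the others, and without that library the value with ITE was 0.89 (adjusted p = 0.258). Its exons share 2113 bases with SAMD14 on the opposite strand, and the strand setting of the counting is not given in the sources used here.

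PDK3 and PDK4 were below the filter, with at most 2.0 and 1.37 CPM in any library. The substrate of these kinases, the E1 component of pyruvate dehydrogenase, had 2 genes in the set, and neither passed. PDHA1 had a log2 fold change of 0.24 (adjusted p = 0.508) with DMSO and -0.06 with ITE. PDHB gave 0.15 (adjusted p = 0.753) and -0.08. PDHA1 shares 953 exon bases with MAP3K15 on the opposite strand.

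Lactate leaves and enters cells through monocarboxylate transporters that need basigin (BSG) to reach the membrane. SLC16A3 (MCT4, the low-affinity exporter) ranged from 148 to 174 CPM (median 164) in normoxia + DMSO and from 193 to 290 CPM (median 258) in hypoxia + DMSO. It rose 1.56-fold (log2 fold change 0.64, SE 0.14, adjusted p = 0.0143) without overlap, and 1.82-fold with ITE. SLC16A1 (MCT1, the high-affinity transporter) ranged from 182 to 208 CPM (median 202) and from 197 to 252 CPM (median 206) with DMSO. These groups overlapped, and the log2 fold change was 0.09 (SE 0.11, adjusted p = 0.874). BSG had a log2 fold change of -0.02 with DMSO, 0.63 (adjusted p = 0.142) with ITE and 0.07 with ITE once replicate 6 was left out.

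Hypoxia with DMSO changed the balance of isoforms at 7 of the 9 steps that have several genes. Of 17 pairs of tested genes at the same step, 11 had a changed log2 CPM ratio with DMSO (exact permutation test of 6 against 6 libraries, two-sided, Benjamini-Hochberg adjusted over the 17; smallest p 0.00216). With ITE 12 pairs passed, and 14 passed without replicate 6. Ratios were taken after adding 2 CPM to each gene, and a ratio within a library depends little on how the libraries were scaled.

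HK2 relative to HK1 rose by 0.71 on the log2 scale with DMSO (exact permutation p = 0.00216, adjusted p = 0.00368) and by 0.63 with ITE (0.81 without replicate 6). Per kilobase, HK2 made up 27.5 ± 2.28% (SD, n = 6) of HK1 and HK2 counts in normoxia + DMSO. In hypoxia + DMSO its part was 38.9 ± 3.44%, so HK1 remained the larger of the pair. HKDC1, a hexokinase gene outside the set, was above both, at 44.3 and 46.1 CPM per kilobase in these groups. HK1 was at 16.7 and 38.0 and HK2 at 6.29 and 23.7 CPM per kilobase. PFKFB4 relative to PFKFB3 rose by 1.91 with DMSO and 2.12 with ITE (1.95 without replicate 6). PFKFB4 went from 3.39 ± 0.506% to 15.4 ± 1.52% of PFKFB counts per kilobase with DMSO, while PFKFB3 held 92.9 ± 0.746% and 83.6 ± 1.59%.

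ENO2 relative to ENO1 rose by 1.53 with DMSO and 1.18 with ITE (1.29 without replicate 6), but ENO1 still held 96.7 ± 0.361% of enolase counts per kilobase in hypoxia + DMSO. ENO2 and ENO3 were at 9.26 and 9.34 CPM per kilobase in normoxia + DMSO and at 40.1 and 9.93 CPM per kilobase in hypoxia + DMSO. LDHA relative to LDHB rose by 0.94 with DMSO and 0.96 with ITE. LDHA made up 41.8 ± 2.20% of the pair per kilobase in normoxia + DMSO and 58.0 ± 5.86% in hypoxia + DMSO. Per kilobase, LDHA was above LDHB in every hypoxia + DMSO library except replicate 1 (46.7%), which was still above the highest normoxia + DMSO library (44.8%). Which gene of the pair is the larger depends on the exon lengths used, 2241 bases for LDHA and 1303 for LDHB. Before division by length, the log2 CPM ratio of LDHA to LDHB was at least 0.14 in normoxia + DMSO.

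SLC2A1 relative to SLC2A6 rose by 1.44 with DMSO and 0.81 with ITE (0.94 without replicate 6). Among the SLC2A genes of the set, SLC2A1 held 73.3 ± 3.39% of counts per kilobase in normoxia + DMSO and 88.2 ± 1.59% in hypoxia + DMSO. Outside the set, SLC2A8, SLC2A11 and SLC2A13 were at 9.15, 3.15 and 0.80 CPM per kilobase in normoxia + DMSO. In hypoxia + DMSO they were at 7.38, 2.74 and 0.77. SLC16A3 relative to SLC16A1 rose by 0.54 (exact permutation p = 0.0108, adjusted p = 0.0167) with DMSO and 0.86 with ITE (0.61 without replicate 6). PDK1 relative to PDK2 rose by 1.80 with DMSO. With ITE the difference was 0.46 (exact permutation p = 0.305), or 0.78 (exact permutation p = 0.039) without replicate 6. In that library PDK1 was 43.2 CPM and PDK2 13.8 CPM. PDK2 held 50.3% of its kinase counts per kilobase, a share that rests on exon lengths of 14072 bases for PDK1 and 3364 for PDK2.

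At the other 2 steps no pair passed with DMSO. ALDOC relative to ALDOA differed by 0.29 with DMSO (exact permutation p = 0.234, adjusted p = 0.265), and ALDOA held 98.7 ± 0.422% of aldolase counts per kilobase in hypoxia + DMSO. For phosphofructokinase-1 the differences were 0.07 for PFKP to PFKL, 0.15 for PFKL to PFKM and 0.22 for PFKP to PFKM. PFKP held 73.0 ± 2.02% in normoxia + DMSO and 74.4 ± 3.23% in hypoxia + DMSO. With ITE, PFKL to PFKM passed (0.61, and 0.28 without replicate 6), as did PFKP to PFKM (0.48, and 0.24 without it).

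**Figure D3:**
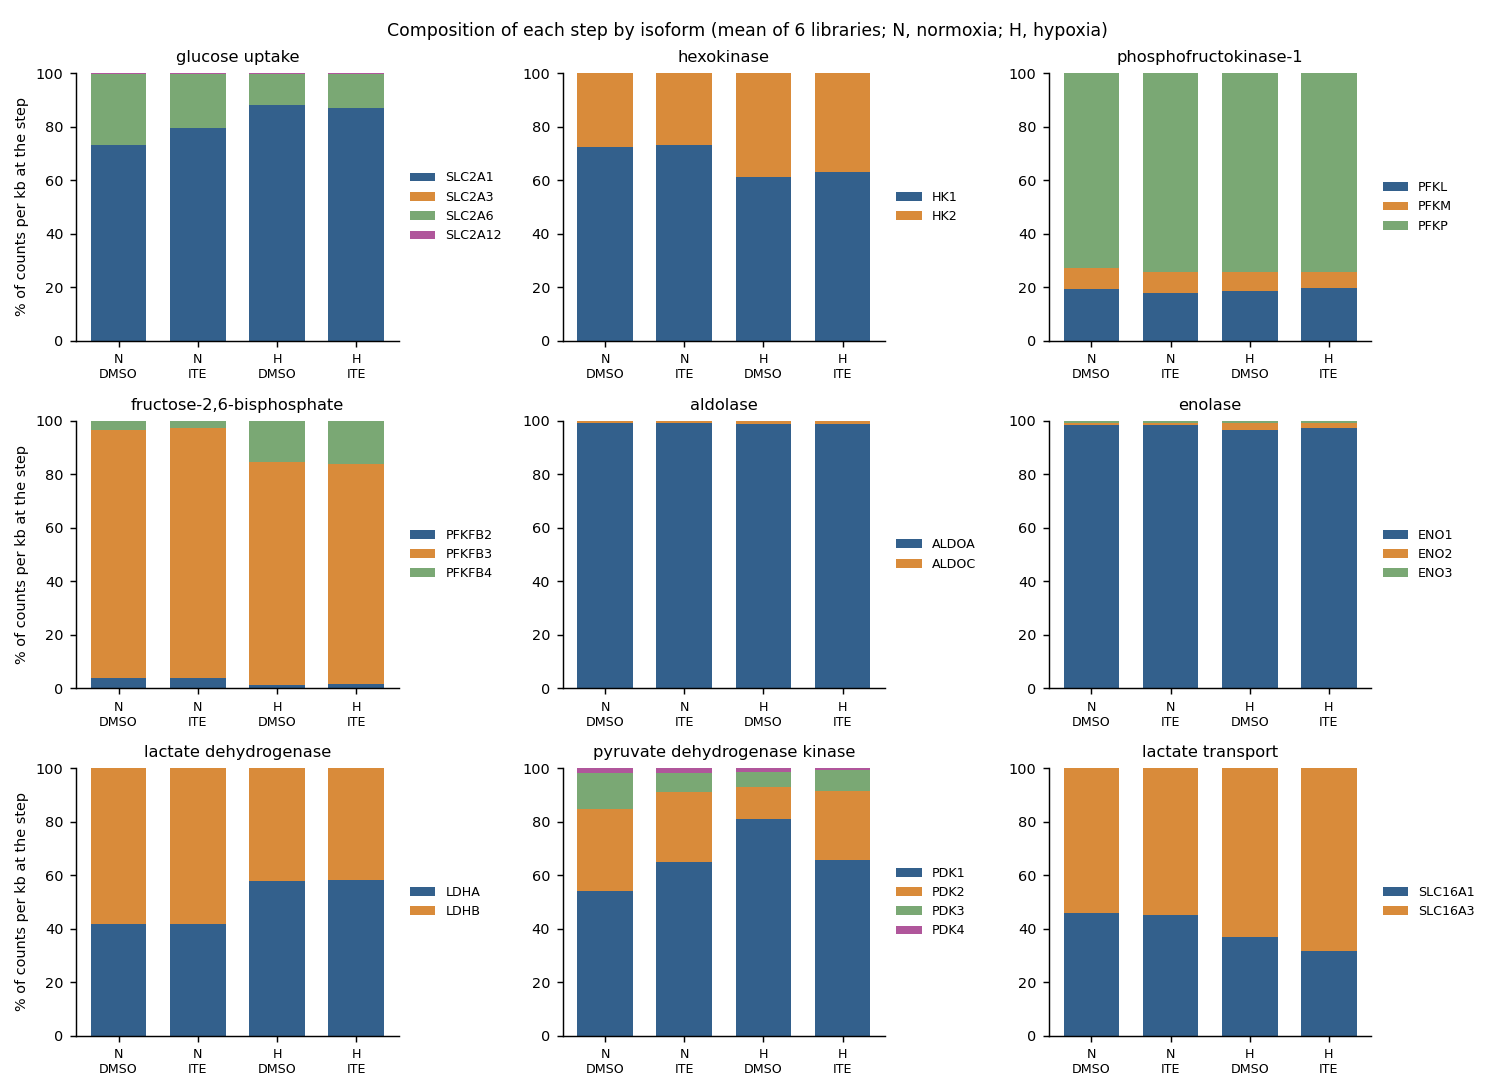
Mean percentage of counts per kilobase that each gene took at its step, over 6 libraries per group, for the 9 steps with several genes. Only genes of the set are counted, so HKDC1 and further SLC2A genes are left out. LDHA goes from 41.8% to 58.0% with DMSO, PFKFB4 and HK2 take larger parts in hypoxia, and PFKP stays near 74% and ALDOA near 99%. The mean of hypoxia + ITE includes replicate 6.

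In the fit to all libraries, ITE changed no gene of the set past the threshold, in normoxia or in hypoxia. In normoxia 0 of 32 passed in edgeR, against 0.0511% of all genes raised and 0% lowered, and 0 passed in DESeq2. At an unadjusted p under 0.05 there was 1 gene, SLC2A1, against 1.46% of all genes. SLC2A1 averaged 144 ± 17.3 CPM (SD, n = 6) with DMSO and 181 ± 15 CPM with ITE, and the ranges overlapped. Its log2 fold change was 0.34 (interval 0.12 to 0.56, unadjusted p = 0.00602, adjusted p = 1.0), and 2 of 11 alternative fits called it. These fits were voom with sample quality weights and the replicate block with the compared groups alone. Over all genes, voom called 67 higher and 45 lower, and this block called 160 higher and 95 lower. The number of genes called for ITE in normoxia thus depended on the fit. In their own analysis, the authors report SLC2A1 as a gene with HIF and AHR bound nearby that hypoxia and ITE each induced. The comparison of ITE in normoxia shares the normoxia + DMSO libraries with that of hypoxia with DMSO.

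The intervals for ITE in normoxia differed in width between genes. They were narrowest for PGK1, PGAM1 and LDHA, with 95% intervals of -0.14 to 0.23, -0.21 to 0.13 and -0.10 to 0.31 on the log2 scale. Those of GPI (-0.44 to 0.35), GAPDH (-0.37 to 0.49) and BSG (-0.47 to 0.46) were wider and leave room for moderate changes in either direction. PFKFB4 gave -0.40 (interval -0.80 to -0.01 from 1.96 standard errors, unadjusted p = 0.0536) and did not pass. The interval of SLC2A12 (-1.02 to 0.93) allows a large change in either direction, and that of PDK2 (-1.32 to 0.18) a large fall. Of the 17 isoform ratios, 0 passed for ITE in normoxia. The 2 with an unadjusted p under 0.05 were SLC2A1 to SLC2A6 (0.50, exact permutation p = 0.00649, adjusted p = 0.11) and SLC2A1 to SLC2A12 (0.34, exact permutation p = 0.0455, adjusted p = 0.386).

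In hypoxia 0 of 32 genes passed for ITE in edgeR or DESeq2, against 0.0597% of all genes raised and 0% lowered. At an unadjusted p under 0.05 there were 5, against 9.56% of all genes. GPI (0.47), GAPDH (0.49) and BSG (0.64) were higher and PFKFB3 (-0.28) and PGK1 (-0.25) lower. Without replicate 6 there was 1, against 2.94% of all genes, and the values were 0.05, 0.01, 0.09, -0.20 and -0.20. The 1 was PGK1 (edgeR unadjusted p = 0.0196, adjusted p = 1.0). With replicate 6 included, PGK1 was 1316 ± 94.2 CPM (SD, n = 6) in hypoxia + DMSO and 1104 ± 139 CPM in hypoxia + ITE, with overlapping ranges. Replicate 6, at 916 CPM, was the lowest hypoxia + ITE library for this gene.

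Whether ITE altered the response to hypoxia was tested as an interaction. No gene of the set passed, and of all genes 0% were called in either direction by edgeR. At an unadjusted p under 0.05 there were 2 of 32 genes, against 3.19% of all genes. In edgeR these were PGK1 (-0.30, unadjusted p = 0.0349) and PDK2 (1.30, unadjusted p = 0.0251, or 0.90 and 0.0786 without replicate 6). Without replicate 6 edgeR gave again 2, SLC2A1 (-0.36, unadjusted p = 0.0238) and PGK1 (-0.25, unadjusted p = 0.0365), against 1.74% of all genes. PFKFB4, ENO2, HK2 and LDHA had interactions of 0.20, -0.21, -0.14 and -0.17, with 95% intervals of -0.32 to 0.72, -0.61 to 0.20, -0.50 to 0.23 and -0.46 to 0.13.

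**Figure D4:**
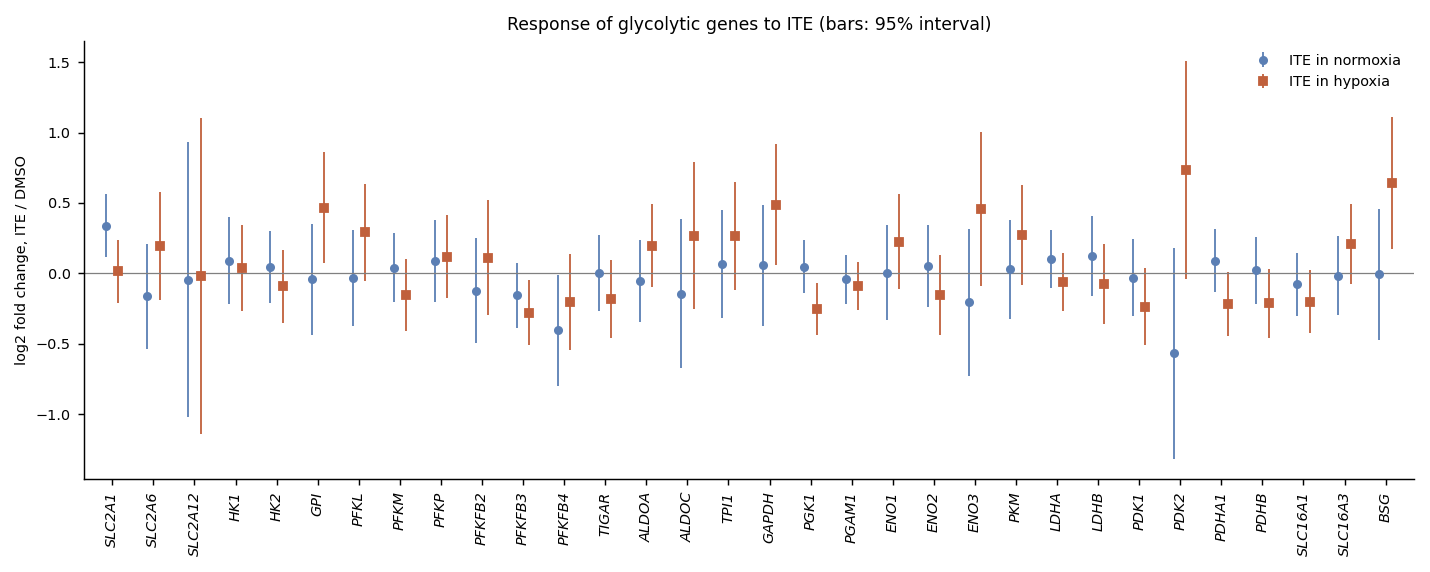
Log2 fold change of ITE against DMSO for the 32 tested genes in normoxia (circles) and in hypoxia (squares), with 95% intervals from edgeR. SLC2A1 is the highest in normoxia at 0.34, and the hypoxia values of BSG, GAPDH and GPI include replicate 6.

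Neighbouring pathways were also examined. Of 56 other genes of glycolysis and gluconeogenesis, sugar and lactate transport, the pentose phosphate pathway and pyruvate entry, 31 were tested. With DMSO 1 of the 31 rose (3.23%, against 1.16% of all genes) and with ITE 2 rose (6.45%, against 1.89%), or 1 without replicate 6. PGM1, which links glycogen to glucose 6-phosphate, ranged from 116 to 138 CPM (median 120) in normoxia + DMSO and from 151 to 218 CPM (median 180) in hypoxia + DMSO. It rose by 0.55 with DMSO (adjusted p = 0.00153) and 0.45 with ITE. PC, pyruvate carboxylase, rose by 1.07 with ITE (adjusted p = 0.0337), but replicate 6 held its highest value at 16.2 CPM, and without that library it did not pass (0.76, adjusted p = 0.0956). The 8 tested pentose phosphate genes had log2 fold changes between -0.44 and 0.19 with DMSO and the 8 genes of pyruvate entry and its dehydrogenase complex between -0.40 and 0.47.

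The promoter windows were compared by the letters they hold, over 250 bases before each RefSeq start (GRCh38.p14). ACGTG, on either strand, was in 18.5% of all 35116 windows and in at least 1 window of 29.6% of the 8736 tested genes in the table. It was in 9 of the 13 glycolytic genes that rose with DMSO and in 9 of the 17 others tested that have a window. GCGTG was in 54.4% of the tested genes, in 8 of the 13 and in 10 of the 17. Genes with several starts have more windows, up to 7 for HK1 and PFKM, and SLC2A1, HK1, PFKFB4 and PGAM1 rose with no ACGTG in theirs. A match describes letters, not a bound site.

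Several of these genes have near-identical copies elsewhere in the genome. The authors removed reads that did not map uniquely, so the levels of GAPDH, PGK1, LDHA, ALDOA, TPI1, PGAM1 and ENO1, which have processed pseudogenes, are uncertain, whereas a change between groups compares the same positions. In normoxia + DMSO the highest levels per kilobase were those of GAPDH (2531 CPM per kilobase), LDHB (1174), ENO1 (1060), PKM (925) and LDHA (848), and the lowest of the tested genes were SLC2A12 (0.187), PDK2 (1.09) and PFKFB4 (1.44).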

How the data were processed

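PolyA RNA libraries (NEBNext Ultra II Directional, 150 bp paired-end) were sequenced in 24 samples. The authors trimmed reads with Trim Galore 0.3.3, aligned them to GRCh37 with HISAT2, removed non-unique reads with Picard 2.0.1 and deposited raw counts per UCSC gene from HTSeq 0.5.4p3 (intersection-strict). Here 11735 genes passing edgeR's filterByExpr (minimum count 10) were fitted in 1 TMM-normalised quasi-likelihood model of 4 groups and 24 libraries (edgeR 4.0.16, R 4.3.3), with p-values adjusted over all genes tested. Isoform ratios were compared by exact permutation (scipy 1.17.1). Lengths (of the canonical transcript) and positions came from GENCODE 44 lifted to GRCh37. The counts were per UCSC gene, so levels and shares per kilobase depend on the transcript taken for the length. Alternatives used DESeq2 1.42.0, limma-voom 3.58.1, other filters, the compared groups alone, a replicate block and left-out libraries.

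Given in full were the genes past the threshold in a comparison and, at the steps of these genes, the most abundant of the others; further genes got fold changes, ranges and counts. The promoters of the 2 genes that changed most and of the least changed gene of their step were chosen by rule, and those of LDHA and LDHB after values were seen. The members and lists were chosen with earlier results of these data known. The study's methods give 6 independent replicates per group. Depth differed between libraries, and 3 counts were worth 0.0320 to 3.90 CPM.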

Additional observations from a re-analysis of the deposited data

Results flagged for a closer look

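Within each group of 6 libraries, the highest or the lowest library was far from its nearest neighbour in 18 of 96 sets of values checked (gap over range above Dixon's 95% critical value). Chance flags about 1 in 20 groups, or 4.8 of 96, and the genes of 1 library are not independent.

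Hypoxia + ITE replicate 6 accounted for 10 of the 18. It was high for HK1 (210 CPM), GPI (1022 CPM), ALDOA (3939 CPM), ALDOC (75.1 CPM), TPI1 (2913 CPM), GAPDH (15339 CPM), ENO1 (6065 CPM) and ENO3 (50.7 CPM). It was low for PFKFB3 (217 CPM) and SLC16A1 (113 CPM). In the same group, replicate 3 was high for LDHA (5087 CPM).

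Hypoxia + DMSO replicate 1 was high for LDHB (2837 CPM) and SLC16A1 (252 CPM). ENO2 was high in normoxia + DMSO replicate 6 (28.5 CPM, next 21.4 CPM) and SLC2A6 in normoxia + ITE replicate 5 (47.3 CPM). Total counts were high in normoxia + ITE replicate 5 (48357647), hypoxia + DMSO replicate 5 (37995687) and hypoxia + ITE replicate 4 (87404330).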

How the results depend on the processing

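Over 11 alternative fits, 12 to 20 genes of the set rose in hypoxia with DMSO and 10 to 19 with ITE. Voom with sample quality weights gave 20 higher and 1 lower (PFKFB2) with DMSO, 1 lower with ITE and 1 for ITE in normoxia (SLC2A1). DESeq2 gave 14 and 19 for hypoxia, and the compared groups alone gave 17 and 13. Leaving out hypoxia + ITE replicate 6 gave 18 and 17, and leaving out hypoxia + DMSO replicate 2 gave 12 and 17. For ITE in hypoxia and for the interaction, 0 genes of the set passed in every fit run. The replicate block gave 13 and 17 for hypoxia, and the block with the compared groups alone gave 10 for hypoxia with ITE and 1 for ITE in normoxia. Replicate numbers marked no shared culture in the labels. Between the normoxia groups, same-numbered libraries correlated above 0.1 in 5 of 6 pairs and best with their own number in 5 of 6. Between the hypoxia groups both counts were 2 of 6. Between oxygen levels they were 4 and 3 with DMSO and 3 and 4 with ITE. For ITE in normoxia, the block with the compared groups alone called 160 of all genes higher and 95 lower. The fit to all libraries without a block called 6 and 0. With numbers taken as pairs, 0 of 17 isoform ratios passed for hypoxia with DMSO in the exact sign-flip test, whose smallest p is 0.0312. After adjustment over the 17, a ratio could pass only if most of them reached that smallest p together. The paired test therefore decides little about these ratios. Several log2 fold changes changed sign between fits, and those given here are not all of them. Over the 11 fits, TIGAR in hypoxia with DMSO ran from -0.0747 to 0.0050 and PDHA1 in hypoxia with ITE from -0.0880 to 0.0075. SLC2A6 in hypoxia with DMSO was 0.0029 in DESeq2 and 0.0135 in voom, and ENO3 was -0.00165 with the replicate block. In the same comparison PDK2 ran from -0.172 to 0.103 over the 11 fits, with 0.103 in voom. PDK2 was 0.0513 without the libraries under 2000000 counts and 0.05005 without hypoxia + DMSO replicate 2. Without hypoxia + ITE replicate 6 it was -0.0182. In hypoxia with ITE, LDHB was -0.0022 in voom, and SLC16A1 ran from -0.0715 to 0.0679 over the 11 fits. SLC16A1 was 0.0336 in voom, -0.0362 without hypoxia + DMSO replicate 2 and 0.0679 without hypoxia + ITE replicate 6. For ITE in hypoxia, voom gave -0.0239 for GAPDH and -0.0221 for GPI. The causes of these changes were not tested. SLC2A3, PDK3 and PDK4 had too few counts to test at this depth.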
